A study of Mus musculus with 2 samples.

Results

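Levels of 9 enzymes of threonine, serine and one-carbon metabolism were examined in undifferentiated mouse embryonic stem cells (mESCs). They were the entries of the count table whose gene name equalled Tdh, Gcat, Gldc, Shmt1, Shmt2, Mthfd1, Mthfd2, Phgdh or Psat1, and made up 9 of the 22556 genes listed. All 9 were found, and all 9 lie on autosomes. Messenger RNA was sequenced from the female (XX) iXist-ChrX-Dom line, a hybrid of strains labelled Dom/129S and Cast. In both samples the endogenous promoter of Xist had been exchanged for a TetOn promoter on the Dom/129S allele, and the cells were untreated (0 h), so that Xist was not induced. The series holds 1 group of 2 replicates and was made to rank genes by their level before silencing, and no treatment can therefore be compared. The labels do not say whether the replicates were separate cultures, so a difference between them may be technical.

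Several features limit the line as a model. It is 1 engineered clone. The cells were kept in foetal calf serum with LIF, in a medium that contains non-essential amino acids, and had been grown on inactivated fibroblast feeders that were removed by pre-plating. The source label reads mESC, whereas another label reads mESC to NPC. Of 12 markers of ES cells, 12 were at 1 or more transcripts per 1000000 (TPM, in this paragraph with the deposited length, introns included) and their summed level was 9749 and 7471 TPM in replicates 1 and 2. With the exonic length 11 were, since Utf1 (9 and 4 counts) was at 0.758 TPM. Tdgf1 gave the largest part of the sum (3618 and 3384 TPM). Pou5f1 was at 160 and 26.5 TPM and Dppa5a at 1713 and 230. By a test given below, 10 of the 12 were lower in replicate 2 and 1 was higher. Of 8 neural precursor markers, 1 (Nes) reached 1 TPM. The summed level of all 8 was 15.2 and 14.2 TPM, and Olig2 and Sox1 had 0 counts, although 83.6% of the exonic length of Sox1 overlaps Gm5607, where fragments may be counted for neither gene. Of 11 feeder fibroblast markers, 1 (Thy1) reached 1 TPM. Their sum was 5.23 and 1.23 TPM, and Lum had 0 counts. Of 6 primitive endoderm markers, 2 reached 1 TPM. Their sum was 5.49 and 6.61 TPM, or 16.3 and 15.9 TPM with the exonic length, where Dab2 was at 12.2 TPM. The libraries held 23716499 counted fragments (replicate 1) and 20275749 (replicate 2), and 3 counts, the limit that a count of 0 allows, equal 0.126 and 0.148 counts per 1000000 (CPM). Intervals and limits given here cover counting error only.

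Mouse ES cells are known to break down threonine in the mitochondria. Threonine dehydrogenase (Tdh) oxidises it, 2-amino-3-ketobutyrate CoA ligase (Gcat) splits the product into glycine and acetyl-CoA, and glycine decarboxylase (Gldc) opens the glycine cleavage system, which passes a methylene group to tetrahydrofolate. Serine hydroxymethyltransferases feed the same folate pool from serine, and the MTHFD enzymes carry its carbon units between oxidation states for the synthesis of purines, thymidylate and methionine. Serine itself is made from a glycolytic intermediate by phosphoglycerate dehydrogenase (Phgdh), phosphoserine aminotransferase (Psat1) and phosphoserine phosphatase (Psph).

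Promoter windows, the 250 bases before to 50 after an annotated start, were taken from RefSeq (GRCm38.p6, the assembly of mm10). There were 9 windows for 8 of the 9 genes in the set of windows used here, which had no entry for Tdh. The upstream 250 bases of some members are shown, 5′ to 3′ on the strand of the gene. Psat1 had the highest span TPM. By CPM, Mthfd2 differed least between replicates and Shmt2 differed most. Gcat had the lowest level. The windows are chr19:15925060-15925309 (minus strand), chr6:83317605-83317854 (minus), chr10:127522445-127522694 (minus) and chr15:79030624-79030873 (plus). Capitals mark CCAAT boxes, read as CCAAT or, from the other strand, ATTGG.
Psat1: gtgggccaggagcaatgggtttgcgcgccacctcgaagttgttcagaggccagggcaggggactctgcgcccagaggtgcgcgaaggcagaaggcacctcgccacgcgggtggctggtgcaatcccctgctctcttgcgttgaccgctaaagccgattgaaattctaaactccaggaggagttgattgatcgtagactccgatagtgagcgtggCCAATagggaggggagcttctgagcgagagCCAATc
Mthfd2: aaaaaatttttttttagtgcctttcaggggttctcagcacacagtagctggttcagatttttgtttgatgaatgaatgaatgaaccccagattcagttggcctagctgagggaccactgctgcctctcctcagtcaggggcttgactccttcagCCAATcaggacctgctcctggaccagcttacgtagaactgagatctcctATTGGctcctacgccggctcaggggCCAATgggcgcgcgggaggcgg
Shmt2: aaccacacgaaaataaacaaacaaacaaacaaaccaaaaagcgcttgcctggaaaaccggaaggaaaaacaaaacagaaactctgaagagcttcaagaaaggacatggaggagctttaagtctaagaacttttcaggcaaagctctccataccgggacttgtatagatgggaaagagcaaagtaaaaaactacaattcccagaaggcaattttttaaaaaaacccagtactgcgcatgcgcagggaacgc
Gcat: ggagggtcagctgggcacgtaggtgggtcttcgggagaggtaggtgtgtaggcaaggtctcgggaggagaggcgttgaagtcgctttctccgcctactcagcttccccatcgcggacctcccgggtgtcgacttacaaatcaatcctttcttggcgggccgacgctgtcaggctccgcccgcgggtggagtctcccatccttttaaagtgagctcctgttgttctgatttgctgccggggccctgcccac

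Psat1 has 2 annotated starts. The full window of the start shown held 3 CCAAT boxes, of which 2 lie at 36 and 6 bases before the start, and that of the other start (chr19:15924573-15924872) held 0 CCAAT boxes and 2 GC boxes. Mthfd2 also held 3, at 96, 47 and 22 bases before its start, whereas Shmt2 and Gcat held 0. Over all members with a window, CCAAT was found in 6 of 8 genes, beside 41.1% of all 27025 genes with a window (37.4% of 32851 windows). The GC box GGGCGG was found in 5 of 8, beside 38.2% of genes (35.7% of windows). The E-box CACGTG was found in 1, Gcat, 2 bases after its start, beside 8.09% of genes (7.15% of windows). The amino acid response core TGATGNAA, a form of the site bound by ATF4, was found in 0 of 8, beside 4.51% of genes (3.97% of windows). Both strands were searched for each motif. CCAAT and GGGCGG were chosen after the windows had been seen. A match describes the letters only, and no match says only that these letters are not in this window.

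Levels are given as TPM with 2 gene lengths. The deposited length covers the whole transcribed span with introns and is called span length here, and the exonic length is the union of annotated exons. The study describes these mRNA data as holding very few intronic reads. In bulk RNA, fewer cells with a transcript and less transcript per cell cannot be told apart. All 9 members were measured at a mean of 1 span TPM or more, against 52.7% of all genes, and 7 of 9 were at 10 span TPM or more, against 29.6% of all genes. The median of the members was 22.8 span TPM (1.35 over all genes) and 47.6 exonic TPM (1.85 over all genes). Together the 9 genes took 17229 counts in replicate 1, 0.0726% of the library (95% Wilson interval 0.0716 to 0.0737%), and 8952 counts in replicate 2, 0.0442% (0.0432 to 0.0451%). The mean share was 0.0584% ± 0.0201 (SD, n = 2). The share was lower in replicate 2, with intervals that did not overlap. Replicates 1 and 2 divided these counts as follows. Serine synthesis took 40.5% and 38.4% of the members' counts, the threonine and glycine route 29.7% and 32.0%, the MTHFD enzymes 21.2% and 22.4%, and the serine hydroxymethyltransferases 8.64% and 7.17%.

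**Figure D1:**
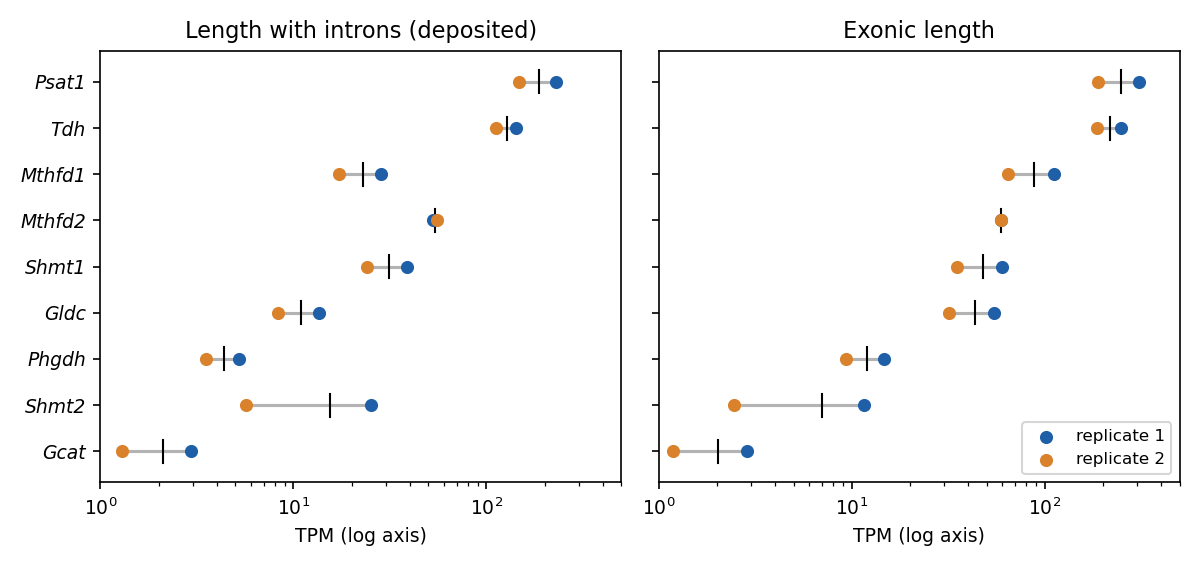
Level of each of the 9 genes in TPM (log axis), computed with the deposited length including introns on the left and with the exonic length on the right. Points are replicates 1 (blue) and 2 (orange), black ticks are means and grey lines join the replicates. Psat1 and Tdh are at the top and Gcat is at the bottom with both lengths, and Shmt2 has the widest gap between replicates.

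Tdh, the enzyme that opens the threonine route, lies at chr14:63492346-63509092 on the minus strand (mm10). It had 3527 counts in replicate 1 and 2122 in replicate 2. Its level was 142 and 112 span TPM, a mean of 127 ± 21.1 (SD, n = 2), which placed it at rank 1347 of 22556 genes, above 94.0% of them. With the exonic length it was 249 and 187 TPM (218 ± 44.4). Replicate 1 was the higher library on both scales. Of the 50-base words of its transcript, 15.0% also occur in pseudogene transcripts. Its neighbours in the order of all genes were Tcea1, a transcription elongation factor, at 127.2 span TPM, and Tia1, an RNA-binding protein, at 127.0 span TPM. Both neighbours were higher in replicate 2 (110 and 144 span TPM for Tcea1, 106 and 148 for Tia1), the opposite of Tdh.

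Gcat, whose product takes the step after Tdh, was the lowest of the 9 genes. It lies at chr15:79030873-79042531 on the plus strand and had 51 and 17 counts. Its level was 2.95 and 1.29 span TPM (2.12 ± 1.17, SD, n = 2), or 2.86 and 1.19 exonic TPM (2.02 ± 1.19). Replicate 1 was higher with both lengths. Of the Gcat span, 5.56% overlaps Galr3, but 0% of its exonic length does. Gldc, the glycine-binding P protein of the glycine cleavage system, lies at chr19:30098440-30175441 on the minus strand and had 1546 and 727 counts. Its span of 77002 bases is the longest of the 9, and exons make up 4.89% of it. It was therefore at 13.5 and 8.36 span TPM (10.9 ± 3.66), but at 54.6 and 31.9 exonic TPM (43.3 ± 16.0).

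The serine hydroxymethyltransferases convert serine to glycine and charge tetrahydrofolate, Shmt1 mainly in the cytosol and Shmt2 in the mitochondria. Shmt1 (chr11:60788896-60811265, minus strand) had 1289 and 608 counts, at 38.8 and 24.1 span TPM (31.4 ± 10.5, SD, n = 2) or 60.0 and 35.2 exonic TPM (47.6 ± 17.5). Shmt2 (chr10:127517122-127522444, minus strand) had 200 and 34 counts, and exons make up 43.3% of its span. With the span length, replicate 1 read 25.3 TPM and replicate 2 read 5.65 TPM (15.5 ± 13.9), and 11.5 and 2.44 TPM with the exonic length (6.99 ± 6.44). The SD of Shmt2 was nearly as large as its mean, so its level rests on which library is read. Shmt2 was the lower of both enzymes in each library and with each length.

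Mthfd1 is the trifunctional folate enzyme of the cytosol, and Mthfd2 is the mitochondrial dehydrogenase and cyclohydrolase that is high in embryonic and tumour cells. Mthfd1 (chr12:76255231-76319820, plus strand) had 2716 and 1258 counts. With exons at 5.02% of its span, it was at 28.3 and 17.2 span TPM (22.8 ± 7.86, SD, n = 2) but at 111 and 64.2 exonic TPM (87.8 ± 33.4). Mthfd2 (chr6:83305703-83317604, minus strand) had 930 and 748 counts. It was at 52.7 and 55.6 span TPM (54.1 ± 2.08) and at 59.34 and 59.35 exonic TPM (59.3 ± 0.00779). By CPM and TPM, Mthfd2 had the closest replicates relative to its level. Other scalings gave another member. With DESeq2 size factors its log2 ratio, replicate 2 over 1, was 0.22, against -0.19 for Tdh. Less a trend on GC content, described below, it was 0.33, against 0.03 for Phgdh.

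In serine synthesis, Psat1 was the highest of the 9 genes by span and exonic TPM and Phgdh was among the lowest. Psat1 (chr19:15905122-15925059, minus strand) had 6762 and 3331 counts, at 229 and 148 span TPM (188 ± 57.1, SD, n = 2), which placed it at rank 920 of all genes, above 95.9% of them. With the exonic length it was at 306 and 188 TPM (247 ± 83.9). Phgdh (chr3:98313170-98339969, minus strand) had 208 and 107 counts. Its level was 5.23 and 3.53 span TPM (4.38 ± 1.20) or 14.6 and 9.35 exonic TPM (12.0 ± 3.72). Of its 50-base words, 62.6% also occur in pseudogene transcripts, so fragments can be lost to copies elsewhere and the Phgdh level is uncertain. When only the exonic length without such words was used, a setting chosen after the data had been seen, Phgdh was at 39.1 and 25.03 TPM (32.1 ± 9.97). This setting cut the length of the members alone and kept all their counts. It thus overstates a level where counted fragments came from the shared stretches. With the same setting Tdh, at 293 and 220 TPM (257 ± 52.3), passed Psat1, at 310.1 and 190.0 TPM (250.1 ± 84.96), by its mean and in replicate 2, and their ranges overlapped.

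By span TPM the 9 genes were ordered Psat1, Tdh, Mthfd2, Shmt1, Mthfd1, Shmt2, Gldc, Phgdh and Gcat. The replicate ranges of 3 neighbouring pairs overlapped, namely Shmt1 with Mthfd1, Mthfd1 with Shmt2, and Shmt2 with Gldc, and the last pair changed places in replicate 2. By exonic TPM the order was Psat1, Tdh, Mthfd1, Mthfd2, Shmt1, Gldc, Phgdh, Shmt2 and Gcat. Here the ranges did not overlap between Tdh and Mthfd1, between Mthfd1 and Mthfd2, and between Gldc and Phgdh, whereas those of the other 5 neighbouring pairs did. Mthfd2 and Shmt1 changed places in replicate 1. Psat1 and Tdh at the top and Gcat at the bottom kept their places with both lengths, and 6 members took another place. Tdh and Psat1 exchanged the top places with the exonic length less the words shared with pseudogenes. With 2 values against 2, the smallest two-sided p of an exact permutation test is 0.333, so the order is a description only.

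**Figure D2:**
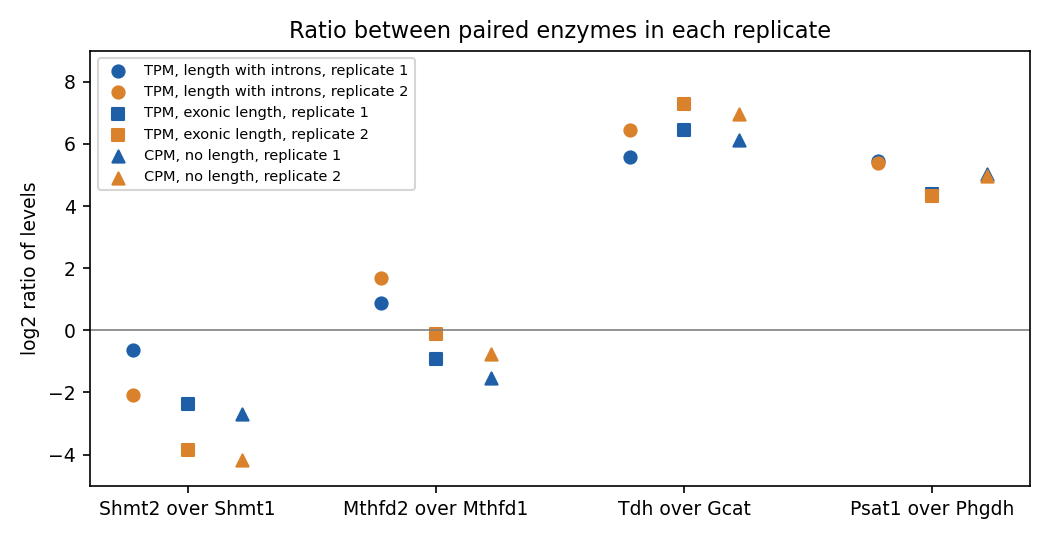
log2 ratio of the level of one enzyme over another in each replicate, for 4 pairs of isoenzymes or successive enzymes. Circles use TPM with the deposited length, squares TPM with the exonic length and triangles CPM, where lengths are not accounted for, and colours are replicates 1 (blue) and 2 (orange). Mthfd2 over Mthfd1 is above 0 with the deposited length and below 0 otherwise, and the other pairs keep their sign.

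Ratios between paired enzymes were formed within each library. Shmt2 was below Shmt1 by a log2 ratio of span TPM of -0.62 and -2.09 in replicates 1 and 2 (mean -1.35 ± 1.04, SD, n = 2). With the exonic length it was -2.38 and -3.85, or 5.20-fold lower in replicate 1 and 14.4-fold lower in replicate 2 (mean -3.11). Of the counts of both genes, Shmt2 took 13.4% in replicate 1 (95% Wilson interval 11.8 to 15.3%). In replicate 2 it took 5.30% (3.81 to 7.31%), and the intervals did not overlap. The mitochondrial Mthfd2 was above the cytosolic Mthfd1 by 0.89 and 1.69 on the log2 scale with the span length (mean 1.29 ± 0.56). With the exonic length the direction turned, to -0.91 and -0.11 (mean -0.51), and with CPM it was -1.55 and -0.75. By the study's account few reads come from introns, and exons make up only 5.02% of the Mthfd1 span. The span length thus counts bases that few reads cover. With exons alone Mthfd1 was the higher in both libraries, by little in replicate 2. Mthfd2 took 25.5% of the counts of both genes in replicate 1 (24.1 to 26.9%) and 37.3% in replicate 2 (35.2 to 39.4%).

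The ratios of successive enzymes followed. Tdh exceeded Gcat by 5.59 and 6.44 on the log2 scale of span TPM (mean 6.02 ± 0.60, SD, n = 2), or 64.7-fold, and by a mean of 6.87 with the exonic length. Psat1 exceeded Phgdh by 5.45 and 5.39 (mean 5.42 ± 0.04), or 42.8-fold, and by a mean of 4.36 with the exonic length. Without the words shared with pseudogenes in that length, but with all counts kept, Psat1 exceeded Phgdh by a mean of 2.96, or 7.76-fold. The size of this ratio therefore depends on the length used, and the last value is too low if counted Phgdh fragments came from shared stretches. The Psat1 to Phgdh ratio was the most alike between replicates of the 4 ratios, although both genes were lower in replicate 2.

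The 2 libraries differed for most members. Each gene's counts were set against the library totals in a two-sided exact binomial test. Over 14536 genes with 10 or more counts in total, at a Benjamini-Hochberg adjusted p of 0.05, 8 of the 9 members were lower in replicate 2 and 0 were higher. Of all genes tested, 60.8% were called in either direction, 45.7% lower and 15.1% higher in replicate 2, so calls of this kind were common. This test compares these libraries, not conditions, and its p-values, like the intervals, cover counting error only, taking each fragment as independent. The median log2 ratio of CPM, replicate 2 over replicate 1, was -0.86 over the members and -0.31 over all genes tested. Scaling by TMM factors, which adds 0.26 to every log2 ratio and calls 57.7% of genes, left the same 8 members lower and called Mthfd2 higher. The ES cell markers moved the same way, with 10 of 12 lower and 1 higher in replicate 2, as did Thy1 alone of 4 fibroblast markers tested, and their part in the difference was not tested. Of all called genes, 24.9% were higher in replicate 2 with library totals, 49.9% with TMM factors and 54.8% with DESeq2 size factors.

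Shmt2 differed the most between the libraries. Its log2 ratio was -2.31 (two-sided exact binomial test, adjusted p = 1.27e-23), or 5.03-fold by CPM, a ratio larger in size than that of 97.5% of the genes tested. The ratio of Gcat was -1.33 (exact binomial, adjusted p = 0.00123). Mthfd1, Gldc and Shmt1 were close together at -0.88, -0.86 and -0.86, followed by Psat1 at -0.80, Phgdh at -0.73 (exact binomial, adjusted p = 4.33e-05) and Tdh at -0.51 (exact binomial, adjusted p = 3.96e-37). Mthfd2 was at -0.09 (exact binomial, adjusted p = 0.290) and was not called.

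GC content moved with this difference. The GC content of the longest annotated transcript ranged from 48.4% (Psat1) to 57.4% (Shmt2) among the 9 genes, and all 9 lay above the median of 47.9% over 9256 autosomal genes with 50 or more counts in each library. Across the genes tested the log2 ratio fell with GC content, from a median of 0.13 for genes up to 45% GC to -0.96 for genes above 55%. When the expected ratio was taken from the trend on GC content, 45.7% of genes were called in either direction and 7 of the 9 members were called. Shmt2 (-1.55), Shmt1 (-0.47), Psat1 (-0.46), Mthfd1 (-0.29) and Gldc (-0.21) stayed lower in replicate 2. Tdh (0.13) and Mthfd2 (0.33) were higher than the trend. Gcat (-0.58, exact binomial, adjusted p = 0.260) and Phgdh (0.03, exact binomial, adjusted p = 0.954) were not called. Of 426 autosomal genes within 1 percentage point of the GC content of Shmt2, 2 had a log2 ratio as low as its own, but these genes all had 50 or more counts in each library, which Shmt2 did not.

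**Figure D3:**
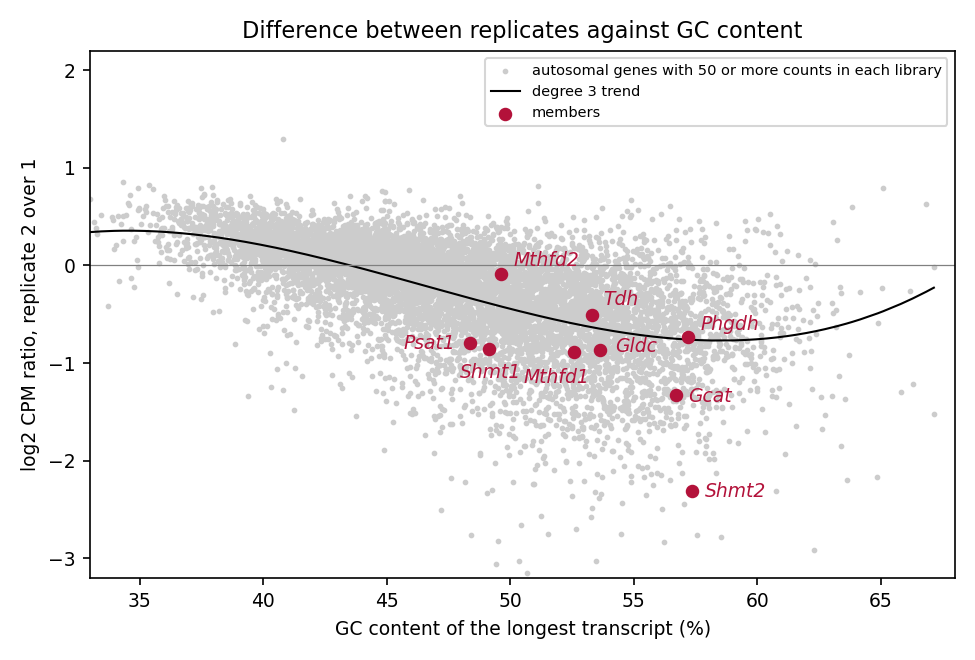
log2 ratio of CPM, replicate 2 over replicate 1, against the GC content of the longest transcript in percent. Grey points are autosomal genes with 50 or more counts in each library (those outside the axes are not shown), the black line is their degree 3 polynomial trend and red points are the 9 genes, of which Gcat and Shmt2 had fewer than 50 counts in replicate 2. Shmt2, at -2.31, is far below the trend, and Mthfd2, at -0.09, is above it.

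Levels also moved with GC content. The median over the genes tested was 48.2 exonic TPM for genes up to 45% GC, 20.5 for those from 45 to 50%, 8.50 from 50 to 55% and 2.71 above 55%. The 3 members above 55% GC, Gcat, Phgdh and Shmt2, were the 3 lowest by exonic TPM. Set beside tested genes within 1 percentage point of their own GC content, Shmt2 was above 72.5% of 1035 genes and Phgdh above 81.8% of 1061, whereas Gcat was above 39.3% of 1127. Tdh was above 98.9% of 1517 such genes, Mthfd1 above 95.0%, Psat1 above 94.6%, Gldc above 86.9%, Mthfd2 above 81.5% and Shmt1 above 73.4%. Gcat was thus the only member below the median of genes of like GC content, 3.17 exonic TPM. The part of GC content in these levels was not tested.

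A further 67 genes of the pathway were read from 7 lists, and all 67 were in the table. At 1 span TPM or more there were 54, and at 10 or more 33. Their median was 8.95 span TPM and 17.1 exonic TPM, below the members and above all genes. Of 58 that were tested, 38 were lower in replicate 2, 6 were higher and 14 were not called (exact binomial test), where 45.7% of all genes tested were lower and 15.1% higher.

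Among 12 genes of threonine and glycine breakdown, 8 were at 1 span TPM or more. The other proteins of the glycine cleavage system were Gcsh, Dld and Amt, of which Gcsh and Dld exceeded Gldc with both lengths and Amt with the span length alone. Gcsh, the H protein that carries the aminomethyl group, had the highest mean of the list with 3928 and 1690 counts (178 ± 70.1 span TPM, 278 ± 119 exonic TPM, SD, n = 2). Dld, the shared dihydrolipoamide dehydrogenase, had 4006 and 4049 counts (236 ± 38.1 exonic TPM) and was called higher in replicate 2 (log2 ratio 0.24), where it exceeded Gcsh with both lengths (180.0 against 129 span TPM). Amt, the aminomethyltransferase, had 382 and 70 counts (15.0 ± 13.3 exonic TPM) and was called lower (-2.21), close to the ratio of Shmt2. Sds, a serine dehydratase of liver, had 0 counts in both libraries. Gnmt, the glycine N-methyltransferase, had 43 and 4 counts, the largest called difference of the list (-3.05). Of 8 genes tested in this list, 5 were lower in replicate 2 and 1 was higher (45.7% and 15.1% of all genes).

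Serine synthesis and entry, a list of 12 genes, had 11 at 1 span TPM or more. Psph, the last enzyme of serine synthesis, had 392 and 235 counts (26.3 ± 5.42 exonic TPM, SD, n = 2) and was called lower in replicate 2 (-0.51). Slc38a2, a sodium-coupled carrier of neutral amino acids, was the highest by span TPM (503 ± 89.6) with 8036 and 7883 counts. Slc6a9, a glycine transporter, was the lowest, with 16 and 3 counts, and had the largest called difference (-2.01). Of 12 tested, 8 were lower, 3 were higher and 1 was not called (45.7% lower and 15.1% higher over all genes).

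In the cytosolic folate cycle, the 2 purine enzymes that use formyl-tetrahydrofolate were close to Mthfd1 by exonic TPM. With the exonic length Gart was at 110 ± 13.0 TPM and Atic at 97.7 ± 1.25 (SD, n = 2). Counts were 3566 and 2426 for Gart and 2070 and 1695 for Atic. Mthfs, which returns 5-formyl-tetrahydrofolate to the cycle, was at 58.6 ± 13.0 exonic TPM, and Tyms, thymidylate synthase, was at 42.0 ± 7.87. Aldh1l1, the cytosolic 10-formyl-tetrahydrofolate dehydrogenase, had 48 and 15 counts and the largest called difference (-1.42). Ftcd, of histidine breakdown, had 2 and 1 counts. Of 6 tested, 5 were lower in replicate 2 (45.7% of all genes), and Atic was not called.

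In the mitochondrial folate cycle, Mthfd1l, the formate-releasing enzyme, was the highest by exonic TPM with 1843 and 1112 counts (50.2 ± 10.1, SD, n = 2), close to Mthfd2. With the span length it was at 5.74 ± 0.941 TPM. Mthfd2l, the paralogue of Mthfd2, had 128 and 128 counts (7.09 ± 1.09 exonic TPM), below Mthfd2 in both libraries. Mtfmt, which formylates the initiator methionyl-tRNA of mitochondria, had 503 and 295 counts and was the highest by span TPM (17.4 ± 3.19). Aldh1l2, the mitochondrial counterpart of Aldh1l1, had 141 and 74 counts. Dmgdh, dimethylglycine dehydrogenase, had 11 and 2 counts and the largest called difference of the list (-1.98), and Sardh, sarcosine dehydrogenase, had 0 in both. Of 5 tested, 4 were lower in replicate 2 (45.7% of all genes), and Mthfd2l was not called.

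Of 8 genes for folate uptake and storage, 7 were at 1 span TPM or more. Fpgs, which adds the glutamate tail that keeps folate in the cell, had 115 and 40 counts and the largest called difference (-1.29). Folr2, a folate receptor, was the lowest with 7 and 4 counts. Of 8 tested, 3 were lower, 1 was higher and 4 were not called, shares near the 45.7% and 15.1% of all genes. Among 12 genes of the methionine cycle and transsulfuration, 9 were at 1 span TPM or more. Mat2a, which makes S-adenosylmethionine, was the highest with 7816 and 6158 counts (793 ± 18.9 span TPM, SD, n = 2). Cbs, cystathionine beta-synthase, had 91 and 31 counts and the largest called difference (-1.31), and Bhmt, betaine-homocysteine methyltransferase, had 2 and 0 counts. Of 9 tested, 5 were lower, 1 was higher and 3 were not called, also near those of all genes (45.7% and 15.1%).

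All 10 regulators of the pathway were at 1 span TPM or more. Atf4, the transcription factor known to drive the serine synthesis and mitochondrial folate genes in the amino acid response, had the highest mean span TPM (407 ± 333, SD, n = 2). This rank rests on replicate 1, where it was at 642 span TPM, since in replicate 2 it was at 172, below Mycn (230.3) and Asns (219.9). It also rests on the span length, since by exonic TPM Asns (538 and 342) was above Atf4 (174 and 44.0) in both libraries. It had 2251 counts in replicate 1 and 459 in replicate 2, with a log2 ratio of -2.07, so its SD, like that of Shmt2, was nearly as large as its mean. Nupr1, a stress-induced regulator, had 29 and 5 counts and the largest called difference of the list (-2.20). Myc had the lowest mean span TPM (2.31), with 20 and 11 counts, but in replicate 2 Trib3 (1.20) was below it (1.94). Of 10 tested, 8 were lower in replicate 2 (45.7% of all genes), 0 were higher (15.1%) and 2 were not called. With 2 libraries, no relation between Atf4 and the 9 enzymes across samples could be tested.

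**Figure D4:**
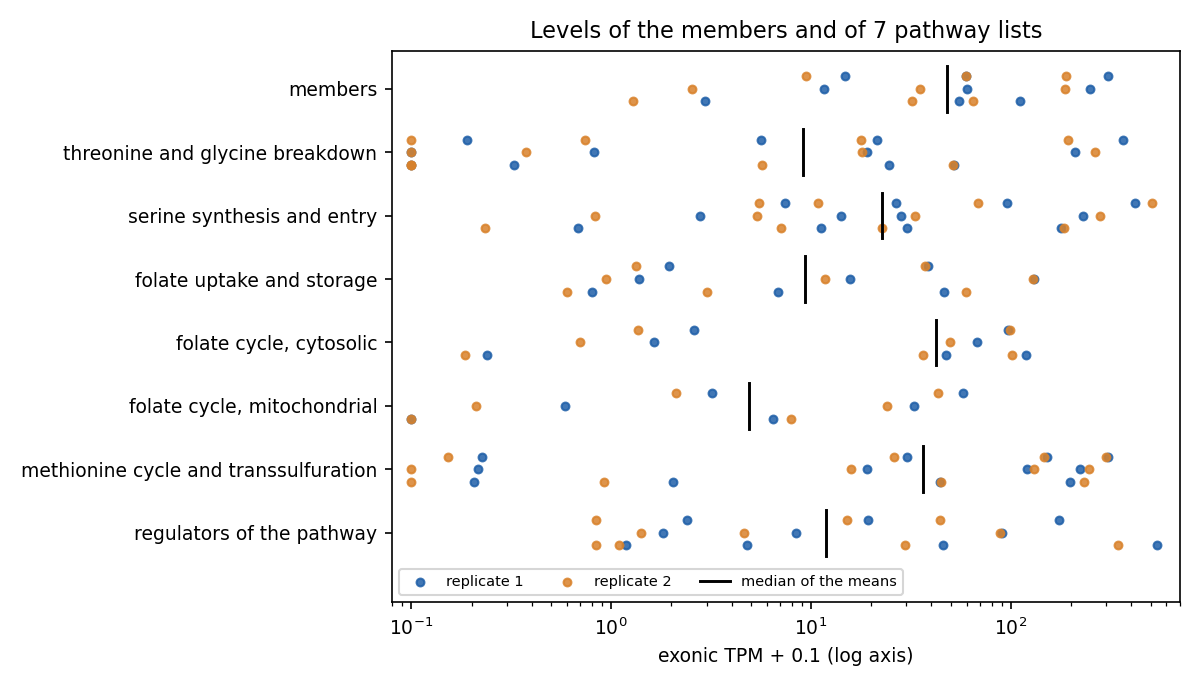
Exonic TPM plus 0.1 (log axis) of the 9 genes, on the top line (members), and of 67 other genes in 7 pathway lists. Points are replicates 1 (blue) and 2 (orange), and black lines are medians of the genes' means. The members' median of 47.6 TPM lies above that of each list, but in replicate 2 alone (35.2) it is below the cytosolic folate cycle (36.4) and the methionine cycle (35.3), and with the span length (22.8) below the methionine cycle (34.3). Points at the left edge are genes with 0 counts.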

How the data were processed

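The 2 libraries of polyadenylated RNA from 1 group were analysed. To make the deposited counts, the authors ran featureCounts 1.5.2, counting paired fragments on the reverse strand over transcript features of mm10 summed by gene, so intronic fragments were counted too. The submitters' processing notes name Bowtie2 2.3.2 and STAR 2.4.2a without a role. For its chromatin RNA libraries the study used them to remove ribosomal reads and to align uniquely to mm10 masked at strain variants, but for these mRNA libraries the aligner is not given in the sources used here. Column names lack a letter b that the sample descriptions carry and were matched by the rest of the name. No per-sample column was left unused (0). The deposited length equalled the union of transcript spans, introns included, for all 22556 genes. Exonic lengths came from GENCODE M21 (basic) matched on the symbol (21258 genes) or an older symbol (876 genes).

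TPM and CPM were computed per library, and the mean of both replicates was taken, following the study. With 1 group, edgeR's quasi-likelihood test has no contrast, so counts were compared by a two-sided exact binomial test (scipy 1.17.1) with 0.5 counts added for log2 ratios, and the code was tested on simulated data. Alternatives used TMM factors (edgeR 4.0.16), DESeq2 1.42.0 size factors, other filters and lengths, a degree 3 GC trend and each library alone. Named in the text are all 9 members, the highest, the lowest and the most different called gene of each pathway list, all genes of both folate cycle lists, Psph, Amt, Gcsh, Dld and Atf4, and the genes next to Tdh in level, except some that are not reported here. Members and lists were chosen with earlier results of these data known.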

Additional observations from a re-analysis of the deposited data

How the results depend on the processing

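Of 100 alternatives over 26 results that kept both libraries, 58 were scored as the same. For levels and ratios this meant a move of less than the replicate SD, and for calls that the call was kept. Some shifts in counts of genes were also scored as the same. The members that differed between the libraries went from 8 to 7 or 9, and the other pathway genes at 1 TPM from 54 to 49 with CPM. Another 30 left out a library, and with 2 libraries a level or ratio cannot then move by more than the SD, so those do not bear on stability. With the exonic length or with no length (CPM), 6 members took another place in the order in each case, and 8 with the exonic length less pseudogene words (chosen after seeing the data), and 0 to 2 did so with either library alone. The log2 ratio of Mthfd2 over Mthfd1 turned from 1.29 to -0.51 (exonic, with or without those words) and -1.15 (CPM), with 0.89 to 1.69 in single libraries. Shmt2 over Shmt1 moved from -1.35 to -3.11, -3.42 and, without those words, -3.09 (single libraries -2.09 to -0.62). Psat1 over Phgdh moved from 5.42 to 4.36 (exonic), 4.99 (CPM), 2.96 (without those words) and 5.12 (1 TPM added), and Tdh over Gcat from 6.02 to 6.87 (exonic), 7.11 (without those words) and 5.40 (1 TPM added), or 5.59 to 6.44 in single libraries. Of the other pathway genes, 54 reached 1 TPM and 33 reached 10 TPM. Against the GC trend the difference between libraries turned for Tdh (0.13) and Mthfd2 (0.33), Phgdh was near 0 (0.0298), and Gcat and Phgdh lost their calls. Mthfd2 also turned with TMM factors (0.17) and DESeq2 size factors (0.22). The cause of these changes was not tested, beyond the lengths and scaling factors themselves.

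Depth limits Gcat and Shmt2, which had 17 and 34 counts in replicate 2. No outlying sample can be tested with 2 libraries. No paired analysis was possible because there is only 1 group of samples.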
